A study of Sus scrofa with 15 samples.

Results

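Epithelial adhesion and keratin genes were followed in the testes of piglets on 5 diets. The genes were 10 named epithelial genes: EPCAM, CDH1, CLDN7, ELF3, GRHL2, KRT7, KRT14, KRT18, KRT19 and DEFB115. They were found by matching these symbols to the gene names of the count table, and 9 of the 10 were present among its 30476 genes. KRT19 was not analysed here. The symbols had been chosen by their read counts in the M + G libraries, above all their high values in 1 of them, so every statement on M + G and these 9 genes is a description without a test.

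The 15 libraries came from male piglets that received their diet from postnatal day 2 to 21, with 3 libraries in each group. The piglets are Dutch Landrace Duroc by the labels and White-Dutch Landrace by the study's abstract, whose methods give Dutch Landrace Duroc sows. Sow piglets received sow milk, Milk piglets a formula based on cow's milk, and Soy piglets a formula based on soy. M + E2 and M + G piglets received the same cow's milk formula with estradiol at 2 mg/kg/d (M + E2) or genistein at 84 mg/L (M + G), a plant isoflavone that binds estrogen receptors. Soy formula contains genistein too, and the study found no significant difference in serum genistein between Soy and M + G. Whole testis was used, so fewer cells of a type and less RNA per cell cannot be told apart. Libraries held 6097552 to 9488579 reads on genes, with a median of 8198038. The columns of 1 Sow and 1 Soy library carried no number and are called Sow unnumbered and Soy unnumbered. Sow 2, which the study excluded from its tests, was left out of the fits and kept in the levels. Markers of the tissue were present in all 15 libraries, with summed levels of 10300 to 24600 CPM (read counts scaled to a common library size) for 4 Leydig cell genes, 1470 to 3710 CPM for 8 Sertoli cell genes and 106 to 280 CPM for 6 germ cell genes.

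Epithelial cells adhere to each other through cadherins, claudins and related surface proteins, and their cytoskeleton is built of keratins, in which a type I keratin pairs with a type II keratin. Transcription factors of the ETS and grainyhead families maintain the expression of such genes in epithelia. In the testis and its outlets, simple epithelium lines the rete testis and the ducts that lead away from it, while Sertoli cells are an epithelium that carries keratin 18 mainly while immature, and EPCAM and E-cadherin are also known on early spermatogonia.

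EPCAM encodes a surface glycoprotein that joins neighbouring cells of simple epithelia. It is listed by RefSeq on chromosome 3 of Sscrofa11.1, from 93169800 to 93185221 (ENSSSCG00000008429). EPCAM had 12, 6 and 6 reads in Sow unnumbered, Sow 2 and Sow 3, 4, 3 and 2 reads in Milk 1 to 3, and 6, 8 and 1 reads in Soy unnumbered, Soy 2 and Soy 3. It had 5, 2 and 10 reads in M + E2 1 to 3, and 21, 207 and 41 reads in M + G 1 to 3. The M + G libraries did not overlap with any other library, and M + G 2 stood far above the other two. After scaling to library size, EPCAM was at 2.70, 21.6 and 4.56 CPM in M + G 1 to 3, against 0.114 to 1.61 CPM in the other 12 libraries. The M + G mean of 9.64 ± 10.4 CPM (SD, n = 3) therefore had an SD larger than itself.

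CDH1 encodes E-cadherin, the calcium-dependent adhesion protein of adherens junctions (ENSSSCG00000025652, chromosome 6, 18075487 to 18155986). Its levels were 2.02, 2.04 and 1.92 CPM in Sow, 0.739, 0.868 and 1.49 CPM in Milk, 2.10, 1.43 and 1.37 CPM in Soy and 1.45, 2.17 and 2.13 CPM in M + E2. M + G 1 to 3 held 2.31, 10.1 and 4.12 CPM. As for EPCAM, the 3 M + G libraries were above all others, but M + G 1 exceeded the next library by little.

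CLDN7 encodes a claudin, a membrane protein of tight junctions (ENSSSCG00000017934, chromosome 12, 52612517 to 52628376). It was at 1.61, 1.46 and 0.958 CPM in Sow, 1.18, 0.868 and 0.623 CPM in Milk, 1.58, 1.43 and 1.03 CPM in Soy, and 1.59, 0.767 and 0.852 CPM in M + E2. M + G 1 to 3 held 1.41, 8.16 and 3.00 CPM. M + G 2 and M + G 3 were the highest libraries, while M + G 1 lay within the range of the other diets.

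ELF3 and GRHL2 encode transcription factors of epithelial cells, of the ETS and the grainyhead family. ELF3 (ENSSSCG00000010922, chromosome 10, 24237852 to 24242266) had 51 reads in M + G 2, 2 in M + G 1 and 1 in M + G 3. In the other 12 libraries it had 0 to 3 reads, with 2, 0 and 1 in Sow, 0, 0 and 1 in Milk, 0, 1 and 3 in Soy and 1 in each M + E2 library. ELF3 was thus high in M + G 2 only, and 78.5% of its reads in all 15 libraries came from that library. GRHL2 (ENSSSCG00000006060, chromosome 4, 35368788 to 35565394, a span that overlaps NCALD in RefSeq) was at 1.67, 3.14 and 0.668 CPM in M + G 1 to 3. Its levels were 1.08, 1.31 and 0.839 CPM in Sow, 0.443, 0.868 and 0.374 CPM in Milk, 1.31, 0.987 and 0.456 CPM in Soy and 0.723, 1.28 and 1.38 CPM in M + E2. GRHL2 was highest in M + G 2 by the smallest margin over the median of the other libraries, and M + G 3 lay in the lower part of the range of the other diets.

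The keratins differed among themselves. KRT14, a type I keratin of basal cells (ENSSSCG00000017448), was at 3.5, 2.19 and 2.52 CPM in Sow, 2.07, 2.23 and 1.87 CPM in Milk, 5.79, 3.18 and 4.90 CPM in Soy, 2.89, 4.47 and 5.54 CPM in M + E2 and 6.93, 26.5 and 10.3 CPM in M + G. All M + G libraries exceeded all others, and all Soy and M + E2 libraries exceeded all Milk libraries. KRT7, a type II keratin of simple epithelia (ENSSSCG00000038966, chromosome 5, 17553192 to 17570582), was at 1.75, 0.438 and 0.839 CPM in Sow, 0.443, 0.124 and 0.872 CPM in Milk, 1.45, 0.768 and 0.456 CPM in Soy, 0.867, 2.68 and 0.532 CPM in M + E2 and 1.41, 6.80 and 4.34 CPM in M + G. M + G 2 and M + G 3 were highest, with M + E2 2 above M + G 1.

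KRT18, the type I partner of keratin 8 (ENSSSCG00000000253, chromosome 5, 18217686 to 18221432), followed another order. It was at 1.75, 2.19 and 1.32 CPM in Sow, 0.887, 1.74 and 9.34 CPM in Milk, 1.05, 4.06 and 2.51 CPM in Soy, 0.145, 1.79 and 0.106 CPM in M + E2 and 1.28, 18.8 and 1.67 CPM in M + G. M + G 2 was highest and Milk 3 second, with 180 and 75 reads. M + E2 1 and M + E2 3 had 1 read each, the fewest of all libraries, and M + G 1 and M + G 3 lay among the other diets. Short reads can match several keratins, and how reads shared by similar keratin genes were assigned is not given in the sources used here.

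DEFB115 belongs to the beta-defensins, small antimicrobial peptides of which many are made in the epididymis (ENSSSCG00000007216, chromosome 17, 35029031 to 35034148). It had 3, 30 and 7 reads in M + G 1 to 3 and 1 read in Sow unnumbered. The other 11 libraries had 0 reads, which allows up to 3 reads in each, by counting error alone. The highest such limit in these 11 libraries was 0.443 CPM. The observed level of DEFB115 was 7.08 times this limit in M + G 2, with 3.14 CPM, and 1.76 times in M + G 3, with 0.779 CPM. M + G 1 was below the limit, with 0.385 CPM. The 30 and 7 reads of M + G 2 and M + G 3 carry counting error too, which these ratios leave out.

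**Figure D1:**
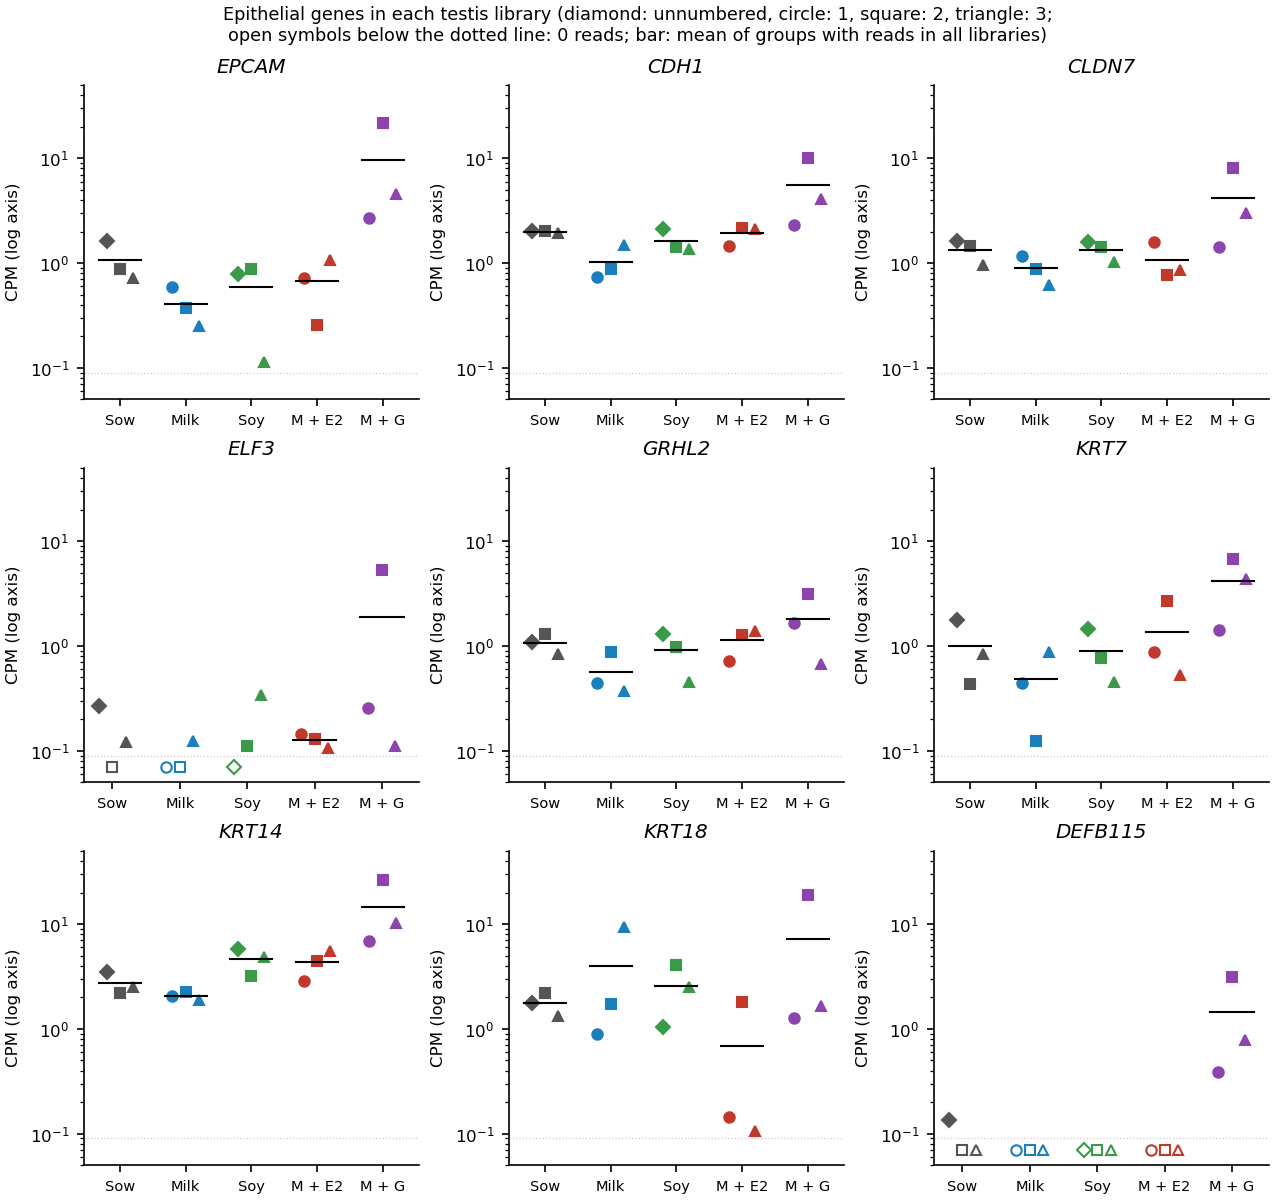
Level of each of the 9 epithelial genes in every library, in CPM, by diet group (Sow, Milk, Soy, M + E2, M + G), on a log axis. Each symbol is 1 library (diamond for an unnumbered library, circle, square and triangle for 1, 2 and 3), open symbols under the dotted line had 0 reads, and the bar is the mean of a group with reads in all its libraries. The square of M + G 2 is the highest point for 9 of 9 genes, as for EPCAM with 2.70, 21.6 and 4.56 CPM in M + G 1 to 3.

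Library by library, M + G 2 held the highest level of 9 of the 9 genes, whereas it was the highest library for 926 of 20309 genes with a mean of at least 1 read (4.56%). The ratio of M + G 2 to the median of the other 14 libraries was 28.6 for EPCAM, 11.1 for KRT18, 7.97 for KRT7, 7.92 for KRT14, 6.29 for CLDN7, 5.16 for CDH1 and 3.38 for GRHL2. For ELF3 the median was below 3 reads, and the ratio to 3 reads was 17. Ranked by this ratio over the 20309 genes, EPCAM was number 4, ELF3 number 7, KRT18 number 21 and GRHL2, the lowest of the 9, number 223. In M + G 2, 8 of the 9 genes were at least 4-fold above the median (0.803% of all genes, 163 of 20309). CDH1 lay just inside this limit and GRHL2 outside it. These counts restate how the genes came to be chosen and carry no test.

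M + G 3 was raised to a lesser degree and for fewer of the genes. EPCAM and KRT7 were 6.04 and 5.09 times the median of the other 14 libraries there, so that 2 of 9 genes passed 4-fold (0.108% of all genes). KRT14 was at 3.10, CLDN7 at 2.32 and CDH1 at 2.09 times the median. KRT18, GRHL2 and ELF3 were not higher in M + G 3, with ratios of 0.958, 0.647 and 0.333. M + G 3 was the second highest library for 6 genes (CDH1, CLDN7, DEFB115, EPCAM, KRT14 and KRT7), and the second place of ELF3, GRHL2 and KRT18 was held by Soy 3, M + G 1 and Milk 3.

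M + G 1 was raised least of its group. Its ratios were 3.57 for EPCAM, 2.08 for KRT14 and 1.80 for GRHL2, and 0 of the 9 genes passed 4-fold (0.0492% of all genes). Outside M + G, KRT18 in Milk 3 was the only one of the 9 genes past 4-fold in any library, at 5.49 times the median (0.0788% of all genes). The other 11 libraries had 0 of the 9 genes past 4-fold. Of all genes, 0.143%, 1.11% and 0.182% passed in Sow unnumbered, Sow 2 and Sow 3, 0.0591% and 0.896% in Milk 1 and Milk 2, 0.0886%, 0.0492% and 0.926% in Soy unnumbered, Soy 2 and Soy 3, and 0.0739%, 0.0788% and 0.103% in M + E2 1 to 3. Milk 2 and Soy 3 thus had more raised genes than M + G 2 over the whole table, with 0 of the 9 epithelial genes among them. Sow 2 did so too, but not when CPM were taken on total counts, where 0.335% of its genes passed. All 3 M + G libraries were above the other 12 for CDH1, DEFB115, EPCAM and KRT14, that is 4 of 9 genes (0.172% of all genes). Without M + G 2, the same 4 genes were above all 12 others in both M + G 1 and M + G 3 (0.798% of all genes).

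**Figure D2:**
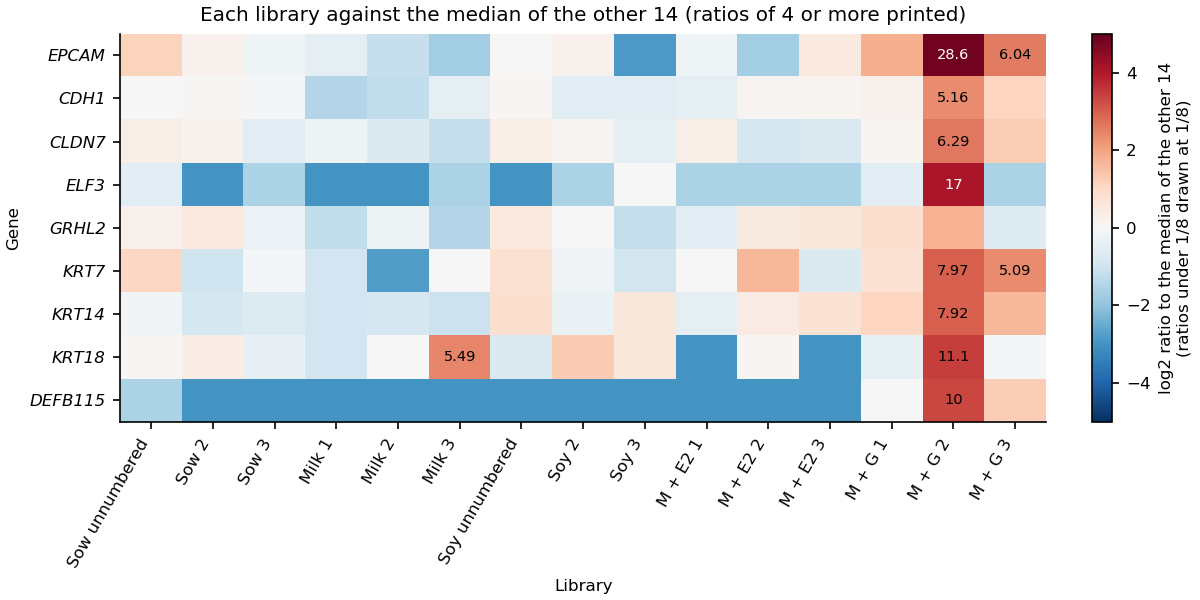
Ratio of the level in each library (columns) to the median of the other 14 libraries for each of the 9 epithelial genes (rows), on a log2 colour scale (red above, blue below the median), with medians under 3 reads set to 3 reads of the library shown and ratios of 4 or more printed. The M + G 2 column is red in every row, from 3.38 for GRHL2 to 28.6 for EPCAM, and KRT18 is also high in Milk 3, at 5.49.

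Summed over the 9 genes, Sow libraries held 9.22 to 13.7 CPM, Milk 6.36 to 14.9 CPM, Soy 11.2 to 14.1 CPM and M + E2 8.53 to 13.5 CPM. M + G 1, M + G 2 and M + G 3 held 18.4, 104 and 29.6 CPM, or 143, 991 and 266 reads. Sow, Milk, Soy and M + E2 overlapped in this sum, and each M + G library was above all of them. The sum rested on 43 to 120 reads per library in the groups other than M + G.

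The fitted differences of M + G from Milk and Sow are given as values without a test. On the log2 scale M + G was above Milk by 4.57 for EPCAM, 3.10 for KRT7, 2.83 for KRT14, 2.41 for CDH1, 2.25 for CLDN7, 1.68 for GRHL2 and 0.87 for KRT18. Without M + G 2 these differences were 3.16 for EPCAM, 2.56 for KRT7, 2.07 for KRT14, 1.62 for CDH1, 1.33 for CLDN7 and 1.01 for GRHL2, and the KRT18 difference was -1.42. Leaving out M + G 2 turned the direction for KRT18 and lowered the difference for the others, which stayed above 0. Against Sow (without Sow 2), M + G was higher by 3.02 for EPCAM, 2.24 for KRT14, 2.22 for KRT18 and 1.46 for CDH1. Leaving out M + G 2 gave 1.61 for EPCAM, 1.48 for KRT14, -0.08 for KRT18 and 0.67 for CDH1. Both comparisons share the M + G libraries.

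The remaining comparisons, among Sow, Milk, Soy and M + E2, did not contrast M + G, whose values chose the genes. They were tested with edgeR's quasi-likelihood test over 15634 genes with Benjamini-Hochberg adjustment. The spread of each gene was estimated over all 14 libraries of the fit, M + G among them. The SEs and p-values of these genes, and the absence of calls, thus rest in part on the values that chose them. A change was called at an adjusted p of 0.05 or less and at least 2-fold. CDH1, CLDN7, GRHL2, KRT14, KRT18 and KRT7 passed the filter on low counts with and without the M + G libraries. EPCAM passed only through M + G and is given by its levels alone, and ELF3 and DEFB115 did not pass. Of the 6 genes, 0 were called in any of the 6 comparisons. The share of all genes called was 5% in M + E2 against Sow, 0.0128% in Soy against Sow, 0.0192% in Milk against Sow, 0% in both M + E2 and Soy against Milk and 0.147% in Soy against M + E2. At an unadjusted p below 0.05, KRT14 alone passed in M + E2 against Milk (17.7% of all genes) and in Soy against Milk (2.44%). In the other 4 comparisons 0 of the 6 passed, where 12.1% to 33.8% of all genes did. DESeq2 and edgeR's exact test also called 0 of the genes they tested in each comparison.

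KRT14 had higher values in every Soy and M + E2 library than in any Milk library. Its mean was 2.06 ± 0.183 CPM in Milk, 4.62 ± 1.32 in Soy and 4.30 ± 1.33 in M + E2 (SD, n = 3). The difference was 1.19 on the log2 scale in Soy (SE 0.478, adjusted p = 0.999 in edgeR's quasi-likelihood test) and 1.04 in M + E2 (SE 0.480, adjusted p = 0.278). The groups did not overlap in either comparison, with the first group higher, as for 2.53% and 8.78% of all genes. Both comparisons share the 3 Milk libraries, and neither difference passed the adjusted threshold. Soy and M + E2 differed by 0.15 (SE 0.446, adjusted p = 0.910).

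KRT18 had the widest spread among the groups other than M + G. Its mean was 3.99 ± 4.65 CPM in Milk, 2.54 ± 1.5 in Soy, 1.75 ± 0.436 in Sow and 0.680 ± 0.961 in M + E2 (SD, n = 3). The fitted difference of M + E2 from Milk was -2.58 on the log2 scale (SE 1.25, adjusted p = 0.297 in edgeR's quasi-likelihood test), and it ranged from -4.88 to -0.999 over the alternatives. Milk exceeded Sow by 1.34 (SE 1.29, adjusted p = 0.638) and this value ranged from -0.24 to 1.79 over the alternatives. Neither order of groups was separated from the spread between libraries.

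EPCAM, CDH1, CLDN7, GRHL2, KRT7 and KRT14 each had their lowest group mean in Milk, as did ELF3 on 0 to 3 reads. The study named EPCAM as raised in M + G against Milk, so its low Milk values may have entered its choice. EPCAM was at 1.07 ± 0.478 CPM in Sow, 0.681 ± 0.406 in M + E2, 0.593 ± 0.418 in Soy and 0.404 ± 0.173 in Milk (SD, n = 3). CDH1 was at 1.99 ± 0.0673 CPM in Sow, 1.92 ± 0.408 in M + E2, 1.63 ± 0.409 in Soy and 1.03 ± 0.404 in Milk. The fitted difference of Milk from Sow was -0.95 for CDH1 (SE 0.585, adjusted p = 0.492 in edgeR's quasi-likelihood test) and -1.43 for KRT7 (SE 0.924, adjusted p = 0.507). Neither passed the threshold, with 1 to 21 reads of CDH1 or KRT7 per library outside M + G and 2 or 3 libraries in a group.

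By count, 5 of the 6 genes had a lower fitted level in Milk than in Sow, with KRT18 the exception, and their median difference was -0.68 on the log2 scale beside 0.00 over all genes. CDH1 and KRT14 did not overlap between Milk and Sow, with Sow 2 left out (17.2% of all genes did so, lower in Milk). In M + E2 against Milk, 5 of 6 were higher, with a median of 0.91 beside -0.03 over all genes, and in Soy against Milk 5 of 6 were higher, with a median of 0.68 beside 0.01. The exception was again KRT18 in both. These 3 comparisons share the Milk libraries. The medians of M + E2 and Soy against Sow were -0.05 and -0.01.

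**Figure D3:**
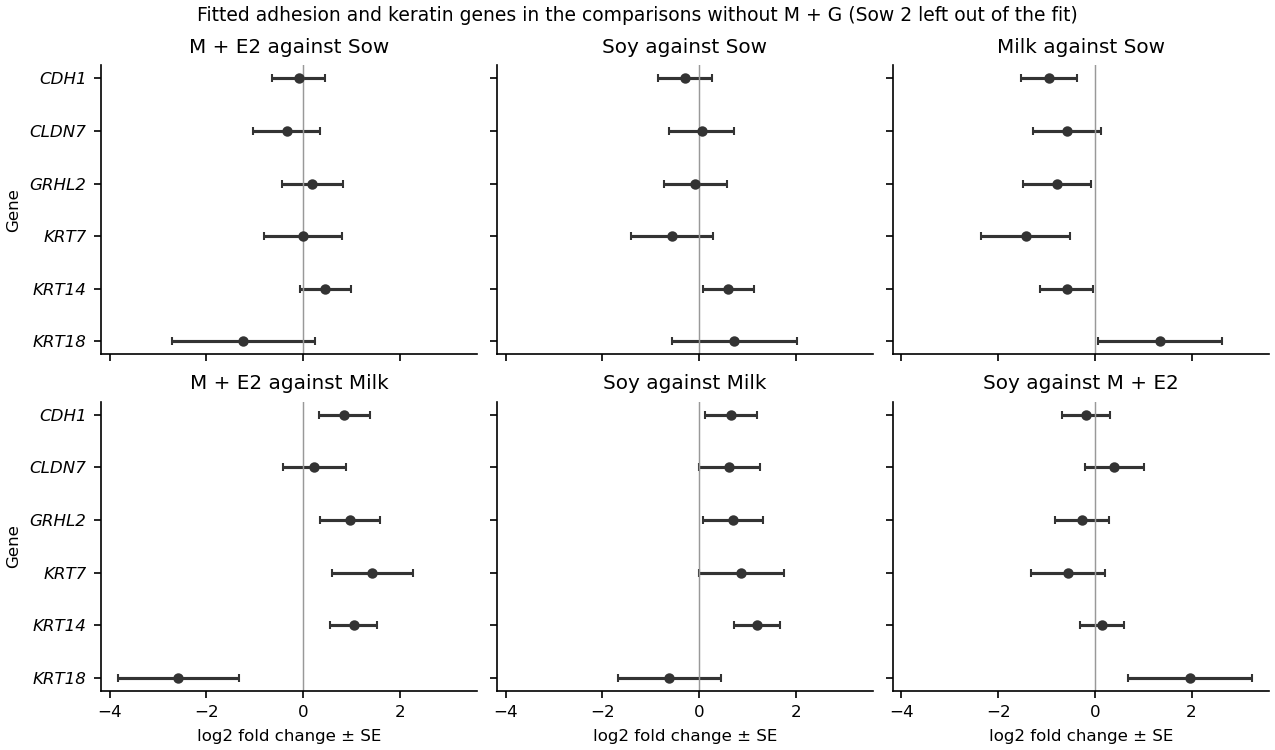
Fitted log2 difference of each of the 6 tested genes in the 6 comparisons among Sow, Milk, Soy and M + E2, with bars of 1 SE on each side and 0 as a grey line. For example, KRT18 in M + E2 against Milk lies at -2.58 with an SE of 1.25, and 0 of the genes passed the threshold in any comparison.

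The next question was how far other epithelial genes shared the pattern. The wider list held 64 genes of epithelial junctions, epithelial transcription and splicing, further keratins and the epithelial surface, of which 58 were in the table and 57 had a mean of at least 1 read. In M + G 2, 11 of these 57 were at least 4-fold above the median of the other libraries, and in M + G 3, 2 of 57 were. The share among all genes was 0.803% in M + G 2 and 0.108% in M + G 3. The median ratio in M + G 2 was 2.32 for 16 surface and polarity genes, 1.20 for 22 junction genes, 0.949 for 13 transcription and splicing genes and 0.992 for 7 further keratins, beside 0.978 over all genes and 7.97 for the 9 genes above. At least 2-fold above the median in M + G 2 were 19 of the 57 genes, beside 4.42% of all genes, 10 of them surface and polarity genes.

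Among the surface genes, TSPAN1, a tetraspanin, had 79 reads in M + G 2 and 22 in M + G 3, against 0 to 4 in the other 13 libraries. TMPRSS2, a membrane serine protease, had 32 and 15 reads there and 0 to 5 elsewhere. RAB25, a small GTPase of epithelial recycling, had 19 and 5 reads there and 1 to 5 elsewhere. TSPAN1 and TMPRSS2 were highest in M + G 2 and second in M + G 3, like EPCAM and KRT7, whereas RAB25 was high in M + G 2 alone.

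Of the junction genes, CLDN8, a claudin, had 20 reads in M + G 2 and 0 in M + G 3, and MARVELD3, a tight junction protein, had 19 and 4. The ratios in M + G 2 were 6.67 for CLDN8 and 6.33 for MARVELD3. Among the transcription and splicing genes the highest ratios were 4.43 for EHF, an ETS factor related to ELF3, 1.69 for ESRP1, a splicing regulator of epithelia, and 1.56 for KLF5, a zinc finger factor.

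KRT8, the type II partner of keratin 18, was 1.98 times the median in M + G 2, beside 11.1 times for KRT18. The median of the other 14 libraries was 154 CPM for KRT8 and 1.70 CPM for KRT18, so the KRT18 ratio rests on far fewer reads. Why the levels of these partners lay so far apart was not tested. KRT8 was at 186, 200 and 162 CPM in Sow, 172, 128 and 182 CPM in Milk, 146, 304 and 164 CPM in Soy, 64.7, 85.9 and 50.7 CPM in M + E2 and 130, 305 and 82.9 CPM in M + G. All M + E2 libraries were below all Sow, Milk and Soy libraries. The fitted difference of M + E2 was -1.44 from Sow (SE 0.449, adjusted p = 0.0575 in edgeR's quasi-likelihood test) and -1.29 from Milk (adjusted p = 0.204), and neither was called. KRT8 and KRT18 thus had their lowest group means in M + E2, the KRT18 values resting on 1, 14 and 1 reads.

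**Figure D4:**
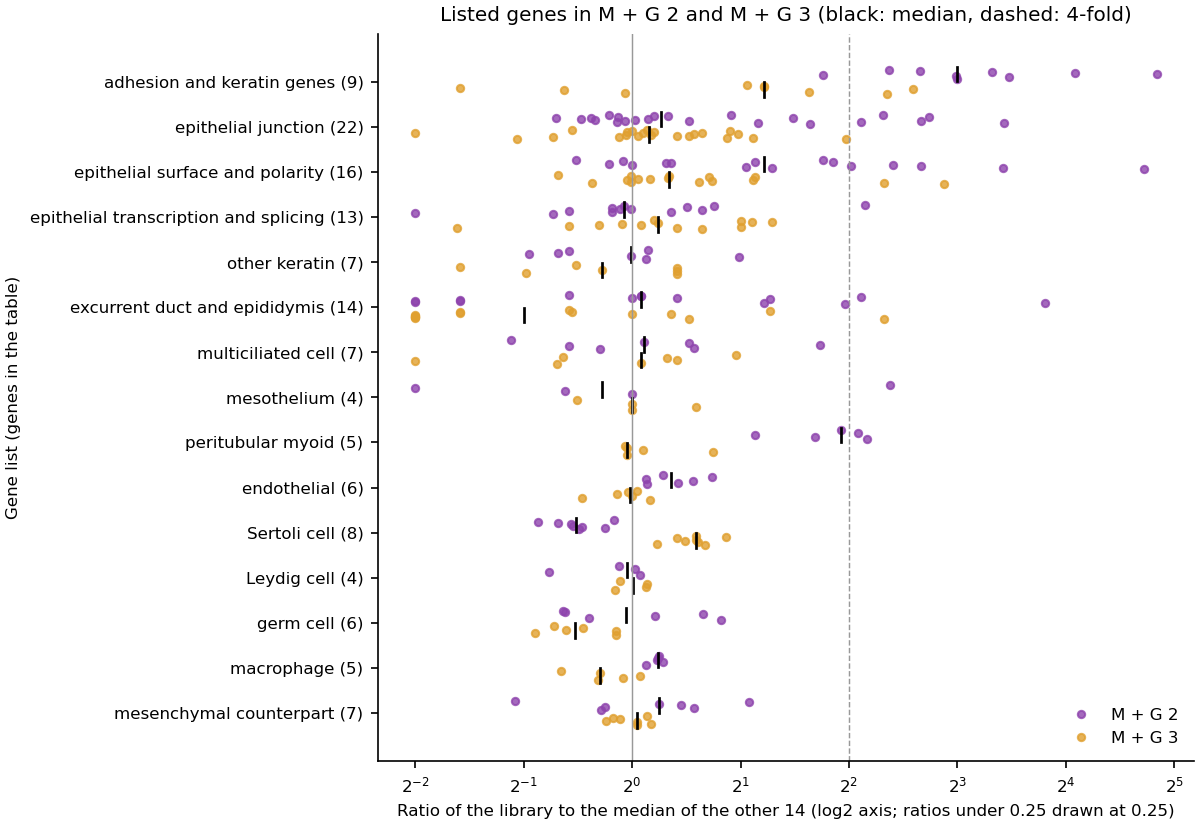
Ratio of M + G 2 and of M + G 3 to the median of the other 14 libraries for each gene (points) of each list (rows), on a log2 axis (M + G 2 purple, M + G 3 orange), with the list median as a black line and 4-fold as a dashed line. The 9 adhesion and keratin genes have a median of 7.97 in M + G 2 and 2.32 in M + G 3, surface genes 2.32 and 1.27, and Sertoli cell genes 0.698 and 1.5.

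In the comparisons between diets, 44 genes of the wider list passed the filter. In M + E2 against Sow, 2 rose and 1 fell, beside 1.44% of all genes called higher and 3.56% called lower. JUP, the junction plakoglobin of desmosomes and adherens junctions, was at 155 ± 5.19 CPM in M + E2 (n = 3) and 71.6 ± 3.00 in Sow (SD, n = 2), a log2 difference of 1.12 (SE 0.267, adjusted p = 0.0396). KRT10, a keratin of differentiated squamous epithelium, was at 8.18 ± 2.22 against 20.04 ± 1.86 CPM, a log2 difference of -1.28 (SE 0.299, adjusted p = 0.0381). Each of the 3 calls was lost when any 1 M + E2 library was left out, with adjusted p of 0.0655 to 0.123. They were also lost without Soy 2, M + G 1 or M + G 3, or without any M + G library in the fit. At an unadjusted p below 0.05, 12 of 44 passed, beside 33.8% of all genes. Markers of cell types differed in the same comparison, with summed levels of 3530 to 3710 CPM in M + E2 against 1990 to 2530 CPM in Sow for the Sertoli cell genes, 12900 to 13800 against 19200 to 19800 CPM for the Leydig cell genes and 634 to 817 against 310 to 432 CPM for the endothelial genes. Their part in the values of JUP and KRT10 was not tested.

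In the other comparisons edgeR's quasi-likelihood test called 0 of the 44 genes. Over all genes it called 0.0576% in M + G against Sow and 0% in M + G against Milk. At an unadjusted p below 0.05, 10 passed in M + E2 against Milk (17.7% of all genes), 7 in Milk against Sow (12.1%), 6 in Soy against Sow (15%), 6 in Soy against M + E2 (13%) and 0 in Soy against Milk (2.44%). For the comparisons with M + G, only the 38 genes that also passed the filter without the M + G libraries were counted, since the others entered through M + G. Of these, 7 passed an unadjusted p of 0.05 in M + G against Sow (23.6% of all such genes) and 3 in M + G against Milk (2.49%). The latter were CLDN3, PPL and SPINT1, each at an adjusted p of 0.940, named after their values were seen. DESeq2 and edgeR's exact test called 1 and 7 genes of the list in M + G against Sow (2.82% and 6.48% of all genes), 1 and 1 in M + E2 against Milk (0.847% and 0.636%), and 3 and 3 in Soy against M + E2 (1.08% and 1.39%). Both called 0 in Soy against Sow, Milk against Sow, M + G against Milk and Soy against Milk. The M + G against Sow counts are over the 23 and 42 listed genes that these tests kept. They were not limited to the 38 genes above, so they can include genes that entered through M + G. Of 7 mesenchymal counterpart genes, 0 were called in any comparison, with unadjusted p below 0.05 for 1 gene each in M + G and in Soy against Sow, and the median ratio in M + G 2 was 1.19.

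Markers of other cell types were read beside these values. Of 14 genes of the excurrent ducts and epididymis, M + G 2 was the highest library for 6, and 2 were at least 4-fold above the median. PAX2, a transcription factor of the Wolffian duct, had 42 reads in M + G 2, 15 in M + G 3, 5 in M + G 1 and 0 to 4 in the others. ATP6V1B1, a proton pump subunit of duct cells, had 13 reads in M + G 2 and 1 in M + G 3, against 0 to 3 in the others. WFDC2, an epididymal secretory protein, had 104 and 36 reads, against 15 to 55 in the others. The epididymal genes FOXI1 and DEFB129 had 0 reads in M + G 2, DEFB1 and CRISP1 had 1, ADAM7 had 2, CES5A had 3 and GPX5 had 7, GPX5 with 0 to 1 elsewhere. The sum of the 14 genes was 24.4 CPM in M + G 2, 13.8 in M + G 3 and 10.7 in M + G 1, against 6.5 to 10.1 CPM in Sow, Milk and Soy and 10.3 to 13.5 CPM in M + E2. The summed duct genes were thus highest in M + G 2, as the epithelial genes were. The largest terms of that sum were WFDC2 at 10.9 CPM and PAX2 at 4.39 CPM. The median ratio of the 14 genes was 1.06 in M + G 2, beside 0.978 over all genes, and 0.5 in M + G 3. The part of the duct genes in the epithelial values was not tested.

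Genes of peritubular myoid cells were high in M + G 2 as well, with a summed level of 2380 CPM against 600 and 659 CPM in M + G 1 and M + G 3. Soy 3 and Milk 2 held still more, with 4020 and 3240 CPM, yet the 9 epithelial genes summed to 11.2 and 7.07 CPM there, below the sums of the other Soy libraries and of Milk 3. Sertoli cell genes had a median ratio of 0.698 in M + G 2 and 1.5 in M + G 3. The median ratio in M + G 2 was 1.28 for 6 endothelial, 1.18 for 5 macrophage, 1.08 for 7 multiciliated cell, 0.970 for 4 Leydig cell, 0.959 for 6 germ cell and 0.824 for 4 mesothelial genes. Among the latter BNC1, a transcription factor, had 65 reads in M + G 2, 9 in M + G 3 and 3 to 21 in the others, a ratio of 5.19. The part of these cell types in the epithelial values was not tested.

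**Figure D5:**
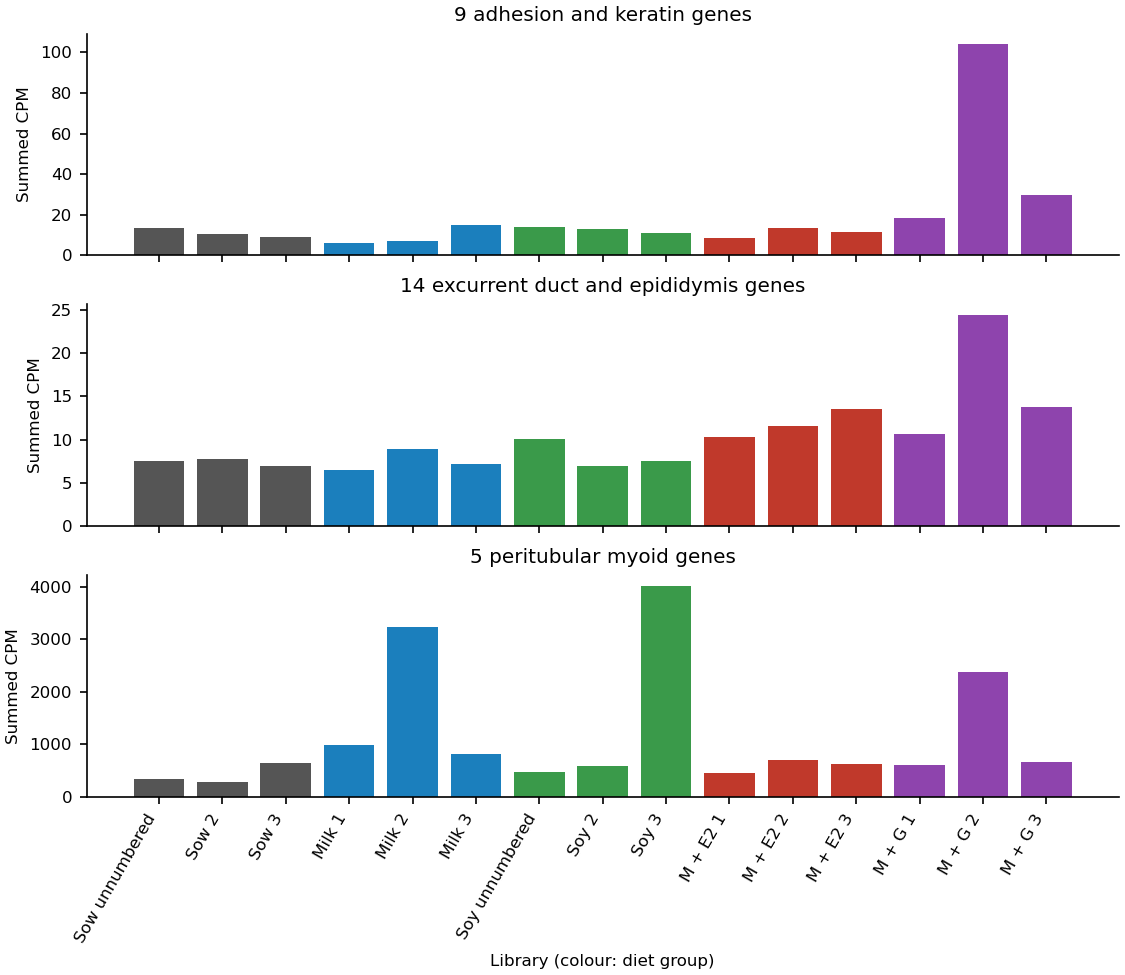
Summed level in CPM (bars, axes from 0) of the 9 adhesion and keratin genes, of 14 duct and epididymis genes and of 5 peritubular myoid genes in each of the 15 libraries, coloured by diet group. M + G 2 is highest for the 9 epithelial genes (104 CPM) and the duct genes (24.4 CPM), whereas Soy 3 (4020 CPM) and Milk 2 (3240 CPM) are highest for the myoid genes.

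The 9 genes were not equally alike over the 15 libraries. The correlation of log2 CPM between a gene and the mean of the other fitted genes was r = 0.935 for CDH1, 0.864 for EPCAM, 0.856 for KRT14, 0.850 for CLDN7, 0.789 for KRT7, 0.635 for GRHL2 and 0.349 for KRT18. Without M + G 2 it was 0.834 for CDH1, 0.702 for EPCAM, 0.679 for KRT14, 0.719 for KRT7, 0.583 for CLDN7, 0.307 for GRHL2 and -0.213 for KRT18. KRT18 thus did not follow the other genes once M + G 2 was left out. These values describe 15 libraries that share 5 diets and 1 library with high values, and they carry no p.

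Over all genes with a symbol, the 10 whose log2 CPM followed the mean of the fitted genes most closely over the 15 libraries included STRA6 (r = 0.819), KCNJ15 (0.813), SLC13A1 (0.793), SPINT1 (0.785), ALDH1A1 (0.784), HPN (0.751), WFDC2 (0.733) and MAP7 (0.715). Their Spearman rho was lower, for example 0.568 for STRA6, 0.389 for KCNJ15 and 0.350 for SLC13A1, and r without M + G 2 was 0.640, 0.430 and 0.360. STRA6, the membrane receptor for retinol binding protein, had 100 reads in M + G 2 and 45 in M + G 3, against 9 to 31 in the others. KCNJ15, a potassium channel, had 91 and 18 reads against 3 to 10. SLC13A1, a sodium sulfate cotransporter, had 111 and 25 against 4 to 13. ALDH1A1, a retinal dehydrogenase, had 1177 reads in M + G 2 and 183 in M + G 3, against 67 to 324 in the others. All 10 had more reads in M + G 2 than in any other library, and M + G 2 was also the library whose values had chosen the epithelial genes.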

How the data were processed

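RNA of whole testis was sequenced as single reads. Per the study's methods, the authors mapped the reads with the CLC Genomics Workbench, first to a library of porcine genes and, where that gave no match, to the pig genome of Ensembl, and the deposited values are counts of reads per gene without normalization. Whether the table holds all mapped reads and whether strand was used in counting are not given in the sources used here. The column names gave the diet of each library, with no number for 1 library each of Sow and Soy. The labels do not name the animals, so p-values measure the spread between these libraries. The 9 genes, the wider gene lists and the tests were chosen with earlier results of these data known.

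The counts were fitted with edgeR 4.0.16 and limma 3.58.1 under R 4.3.3. One quasi-likelihood fit of the 5 groups used 14 libraries, because the study left out Sow 2. Genes were kept by filterByExpr with a minimum count of 10, scaled by TMM and adjusted by Benjamini-Hochberg over 15634 genes. The fit was tested on simulated data. SE is the absolute log2 difference divided by the square root of F. CPM values are TMM-scaled over 15 libraries, and SDs of groups are over 3 libraries, or 2 for Sow beside a fitted difference. A ratio is the level in 1 library over the median of the other 14, with a median under 3 reads set to 3 reads of that library. Positions are from RefSeq (Sscrofa11.1), which matched 8 of the 9 genes.

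All 9 genes are named. Of other lists, called genes and the 3 genes with the highest ratio in M + G 2 and at least 10 reads there could be named, as could the 10 genes most alike by Pearson r. Some of these genes are not reported here. Milk, M + E2 and M + G libraries share numbers. The deviations of same-numbered Milk and M + G libraries correlated with r = 0.231, 0.492 and 0.413, whereas Milk and M + E2 gave -0.0587, -0.09 and -0.323. The labels name no pairs, so a block by number was run only as an alternative, and why Milk and M + G correlated was not tested. Alternatives were DESeq2 1.42.0, edgeR's exact test, other filters, scalings, groupings, left-out libraries and the replicate block. The fit without M + G, the count of genes that pass the filter without M + G and the block over Milk and M + G alone were added after seeing the data. Intervals and limits cover counting error only.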

Additional observations from a re-analysis of the deposited data

How the results depend on the processing

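Over 139 values in 24 settings and 6 comparisons, 0 of the 9 epithelial genes were called, with 1 to 9 of them tested. These counts include EPCAM, which passed the filter only through M + G, and ELF3 and DEFB115 where no filter was used. For genes that a setting did not test, the counts say nothing. Calls in the wider epithelial list did depend on the alternatives. For M + E2 against Sow (3 genes called) the count was 10 with all 3 Sow libraries (18.1% of all genes called). It was 10 with only the 2 groups compared (12.3%), 6 without a filter (3.89%) and 8 with DESeq2 (10.6%). It was 10 with edgeR's exact test (12.6%) and 0 with no M + G library in the fit (0.0582%). With 1 library left out it was 0 to 10 (10 without Sow 3, with 21.3% of all genes). For M + G against Sow (0 called) it was 5 with all 3 Sow libraries (10.3%) and 2 with only the 2 groups (5.38%). It was 1 with DESeq2 (2.82%), 7 with the exact test (6.48%) and 0 to 7 with 1 library left out. Among the latter were 7 without Sow 3 (13% of all genes) and 5 without Sow unnumbered (8.32%). For M + E2 against Milk (0 called) it was 1 with DESeq2 (0.847%) and 1 with the exact test (0.636%). With 1 library left out it was 0 to 10 (10 without Milk 3, with 8.04% of all genes). For Soy against M + E2 (0 called) it was 3 with DESeq2 (1.08%) and 3 with the exact test (1.39%). Mesenchymal genes (0 called) gave 0 to 1 with 1 library left out in M + E2 and in M + G against Sow, and 1 in M + G against Sow with all 3 Sow libraries. The counts for M + G against Sow can include genes that passed the filter only through M + G. The cause of these shifts was not tested. With 2-fold in place of 4-fold, 6 of the 9 epithelial genes were high in M + G 3 in place of 2, beside 2.32% of all genes. The replicate block over Milk and M + G, which share numbers but no named pairs, left 0 genes of the wider list called in M + G against Milk. At an unadjusted p below 0.05, 4 of 35 passed there, beside 6.18% of all genes. The block over Milk, M + E2 and M + G, where M + E2 shares only the number, left 0 of the genes called, with a log2 fold change of KRT18 M + E2 against Milk of -3.09 beside -2.58 without it, and it changed no call. Most of the 9 genes had under 30 reads in most libraries, and groups held 2 or 3 libraries, which both limit the differences that could be detected.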

Other observations

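Over all genes with a symbol, ratios in M + G 2 above that of EPCAM were those of MMP7, a matrix metalloproteinase of glandular epithelium, and of GPX6, a glutathione peroxidase, both named after their values were seen. MMP7 had 370 reads in M + G 2, 1 in M + G 3 and 0 to 3 in the other libraries. GPX6 had 99 reads in M + G 2, 14 in M + G 3 and 0 to 7 in the others. HOXA10, a homeobox gene with a lower ratio, had 105 reads in M + G 2, 3 in M + G 3 and 0 to 36 in the others. These genes differed in M + G 3, where MMP7 and HOXA10 were within the range of the other libraries and GPX6 was above it.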
